A study of Homo sapiens with 4 samples.

Results

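The genes of human chromosome 13 were examined in PC-3 cells made to overexpress RRM2. The gene table placed 313 of its 17634 rows on chromosome 13, and 311 of these were taken, with 2 rows left out by the rule of choice. Of the 311 genes, 268 had enough counts to be tested and 43 did not. The chromosome was chosen from the fold changes of these same 4 libraries, because its genes were shifted upwards in PC-3-RRM2 cells. The size of that shift, the calls and the order of the chromosomes are therefore given as a description, with no test of the shift.

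PC-3 is a cell line from a bone metastasis of a prostate cancer, and RRM2 is the small subunit of ribonucleotide reductase, the enzyme that makes deoxyribonucleotides for DNA synthesis. RNA was sequenced from 2 PC-3-RRM2 libraries, made from a stable line carrying a lentiviral RRM2 vector and kept under puromycin, and from 2 PC-3-EV libraries, made from cells carrying the empty vector. Whether each line was a single clone, whether PC-3-EV cells were kept under the same selection, and whether the 2 libraries of each line were grown separately was not stated, so the spread between libraries may be technical.

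Chromosome 13 is a large, gene-poor acrocentric chromosome, with its protein-coding genes on the long arm and long stretches that hold few genes. Neighbouring genes on a chromosome often differ in function, but some are related and some share a promoter region. PC-3 cells are known for a rearranged, aneuploid karyotype. No measurement of DNA was used here.

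The libraries held 30149181 and 30419769 estimated counts in PC-3-RRM2 cells, against 37801301 and 30778321 in PC-3-EV cells. RRM2 itself, on chromosome 2, had 96.6 and 98.8 CPM (counts scaled to library sizes adjusted by the TMM method) in PC-3-RRM2 cells, against 21.8 and 20.8 CPM in PC-3-EV cells, a log2 fold change of 2.20 (SE 0.0848), which matched the labels. The marker sums that follow are in CPM of the unadjusted library totals, without the TMM factors. Epithelial markers (all 5 of 5 in the table) summed to 624 to 723 CPM in PC-3-RRM2 cells, against 540 to 621 CPM in PC-3-EV cells. The 1 leukocyte marker of 4 in the table stayed below 1 CPM in every library. Summed fibroblast markers were 60.2 to 86.1 CPM, against 66.1 to 82.1 CPM, and summed endothelial markers, of which 1 of 4 had enough counts to be tested, were 9.75 and 9.76 CPM, against 24.3 and 23 CPM. In bulk RNA, more RNA per cell and a larger share of expressing cells cannot be told apart.

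Promoter sequences are shown for 3 sets of members that the results return to: a pair of genes that start back to back and both rose (BORA and MZT1), the gene that fell most among those of at least 5 CPM (KLF5), and the most abundant of the 10 largest rises at that level (LCP1). Each runs 5′ to 3′ on the strand of its gene, with 250 bases before and 50 bases after the gene start given by RefSeq (GRCh38.p14). That start lies 174 bases (BORA), 4029 bases (KLF5) and 148 bases (LCP1) downstream of the 5′ end of the gene's row in the deposited table, so the KLF5 window lies inside its row and does not show the start used there. Capitals mark 4 motifs on either strand: the CCAAT box; the core of a cell-cycle promoter element, TTTGAA; an E2F-like site, spelled TTCCCGCC; and a TATA box, TATAAA. On the opposite strand the CCAAT box reads ATTGG. None of these 4 motifs overlaps another in the 3 windows.
BORA: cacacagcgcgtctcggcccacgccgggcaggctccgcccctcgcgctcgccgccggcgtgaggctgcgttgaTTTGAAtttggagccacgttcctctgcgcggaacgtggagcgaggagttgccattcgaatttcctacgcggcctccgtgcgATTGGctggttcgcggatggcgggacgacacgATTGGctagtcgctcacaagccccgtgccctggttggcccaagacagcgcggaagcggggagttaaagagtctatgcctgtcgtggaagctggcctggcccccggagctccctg
KLF5: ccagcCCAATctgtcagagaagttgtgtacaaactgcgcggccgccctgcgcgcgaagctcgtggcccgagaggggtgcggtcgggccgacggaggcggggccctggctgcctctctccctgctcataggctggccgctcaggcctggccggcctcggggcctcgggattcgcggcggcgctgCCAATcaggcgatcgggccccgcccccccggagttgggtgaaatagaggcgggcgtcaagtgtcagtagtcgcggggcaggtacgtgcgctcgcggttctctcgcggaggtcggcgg
LCP1: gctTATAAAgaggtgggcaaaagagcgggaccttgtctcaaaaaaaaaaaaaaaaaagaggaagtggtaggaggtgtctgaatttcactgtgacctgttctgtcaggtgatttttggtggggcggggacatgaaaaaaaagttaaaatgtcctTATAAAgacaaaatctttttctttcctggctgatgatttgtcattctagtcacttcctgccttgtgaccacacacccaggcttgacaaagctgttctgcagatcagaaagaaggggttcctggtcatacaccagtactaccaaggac
The BORA window (chr13:72727673-72727972, plus strand) shares 207 bases with that of MZT1 and held 35 CpG dinucleotides, 1 TTTGAA and 2 CCAAT. The KLF5 window (chr13:73058755-73059054, plus strand) held 37 CpG and 2 CCAAT. The LCP1 window (chr13:46182128-46182427, minus strand) held 2 CpG and 2 TATAAA. Beside these, the median over all 35116 promoters of this length was 14 CpG, and over the 225 members with a promoter entry 27 CpG.

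Each motif was counted in every window, as a description of the members. TTTGAA was found in 9.52% of the 63 members called higher, in 14.8% of the 162 others and in 15.2% of all promoters. CCAAT was found in 30.2%, 33.3% and 34.6% of the same sets, TTCCCGCC in 7.94%, 3.70% and 3.16%, and TATAAA in 11.1%, 6.79% and 11.5%. A match is a run of letters, and no match says only that these letters were not in this window.

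The genes of chromosome 13 were higher in PC-3-RRM2 cells as a body. The median log2 fold change of the 268 members tested was 0.349 (1.27-fold), with quartiles of 0.122 and 0.667, beside a median of 0.000373 over all 15781 genes tested and -0.00512 over the 15511 genes of other chromosomes. The fold change was above 0 in 218 members (81.3%), beside 50.1% of all genes tested. Following the study's thresholds, a call needed an adjusted p under 0.05 together with a change of more than 1.5-fold in either direction. By this, 71 members (26.5%) were called higher, beside 9.97% of all genes, and 3 (1.12%) were called lower, beside 8.19% of all genes. The remaining 194 were not called. Both PC-3-RRM2 libraries lay above both PC-3-EV libraries in 184 members (68.7%), beside 35.8% of all genes, and below both in 33 (12.3%), beside 33.2% of all genes. The whole set of 311 genes took 0.952% and 1.01% of the estimated counts in PC-3-RRM2 cells, against 0.764% and 0.748% in PC-3-EV cells.

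Chromosome 13 had the highest median of the 23 chromosomes. Chromosome 7 came next, with a median of 0.193 over 816 genes and 14.2% of its genes called higher, and chromosome 4 after it, with 0.132. Chromosomes 21 and 19 came last, with -0.105 and -0.115. Quartile ranges of neighbours in this order overlapped, that of chromosome 13 with that of chromosome 7 included.

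**Figure D1:**
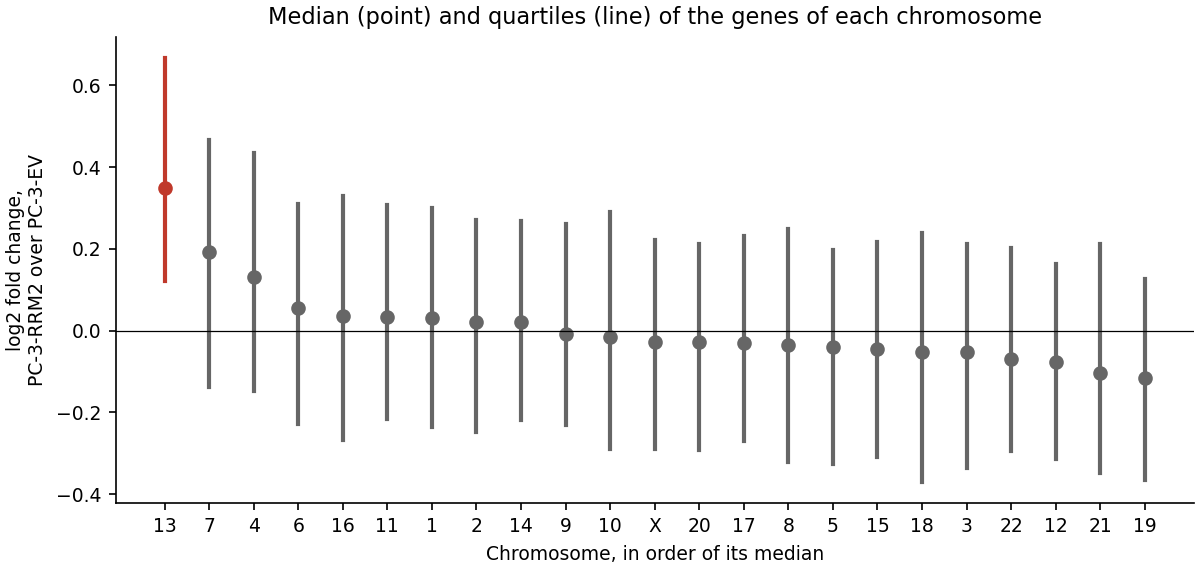
Median (point) and quartiles (line) of the log2 fold change, PC-3-RRM2 over PC-3-EV, for the genes tested on each of 23 chromosomes, in order of the median. Chromosome 13, in red, has a median of 0.349 and chromosome 7, the next, of 0.193.

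The shift was seen between every PC-3-RRM2 library and every PC-3-EV library, and it was larger for replicate 2. On log2(CPM + 0.5), the median difference over the members was 0.269 for PC-3-RRM2 replicate 1 minus PC-3-EV replicate 1 and 0.295 for PC-3-RRM2 replicate 1 minus PC-3-EV replicate 2. It was 0.368 and 0.428 for PC-3-RRM2 replicate 2 minus the same libraries. The PC-3-EV libraries differed from each other by a median of 0.0372. The PC-3-RRM2 libraries differed by -0.112 (replicate 1 minus 2), where genes of other chromosomes had a median of -0.0357, and 25% of the members were higher in replicate 1. The fitted median was 0.293 without PC-3-RRM2 replicate 2 and 0.428 without PC-3-RRM2 replicate 1.

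Along the chromosome the shift was broad, and larger over the first part of the long arm. The running median of 15 neighbouring genes was above 0 in 254 of 254 positions and above 0.2 in 212. It was highest, at 0.793, at the position centred on RFXAP, where it was 0.491 at the positions on both sides and RFXAP itself had -0.12 (SE 0.17) and was not called. It was lowest, at 0.130, around BIVM. In windows of 10 Mb, the median was 0.466 over the 48 genes that start between 20 and 30 Mb, 0.474 over the 31 between 30 and 40 Mb, 0.467 over the 59 between 40 and 50 Mb and 0.456 over the 22 between 50 and 60 Mb. These 4 windows thus lay close together. They held 16, 12, 18 and 8 genes called higher (33.3%, 38.7%, 30.5% and 36.4%) and 0 called lower in each. Of all genes tested, 9.97% were called higher.

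Beyond them the medians were lower and less even. The median was 0.243 over 23 genes between 70 and 80 Mb, 0.392 over 27 between 90 and 100 Mb, 0.133 over 19 between 100 and 110 Mb and 0.174 over the 29 genes beyond 110 Mb. These windows held 4, 8, 1 and 3 genes called higher (17.4%, 29.6%, 5.26% and 10.3%), and the 3 genes called lower. Beside the 9.97% of all genes tested that were called higher, the share was lower between 100 and 110 Mb. It was near that share beyond 110 Mb. The stretches from 60 to 70 and from 80 to 90 Mb held 3 genes each, too few to place. With a division at 65 Mb, chosen after the values were seen, the 166 genes before it had a median of 0.465. Of these, 55 (33.1%) were called higher and 0 lower. The 102 genes after it had a median of 0.204, with 16 (15.7%) called higher and 3 lower. Among genes with a mean of at least 5 CPM the same division gave 0.464 over 114 genes and 0.211 over 77. Spearman's rho between the fold change and the start position was -0.268 over the 268 members, which share the same 4 libraries and are not independent points. Among the members tested, the widest gaps between the starts of neighbours were 7.01 Mb (SUGT1 to DIAPH3), 5.46 Mb (SPRY2 to SLITRK6) and 5.14 Mb (PCDH9 to DACH1). All were in the middle of the arm, and members not tested can start inside them.

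**Figure D2:**
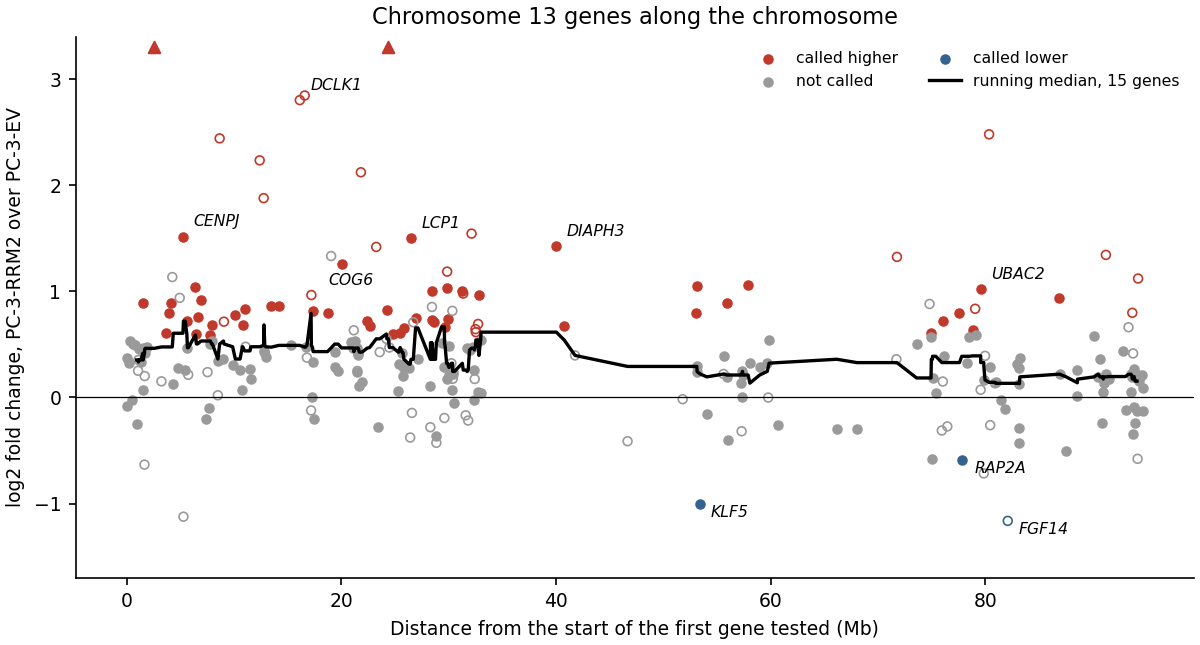
Log2 fold change, PC-3-RRM2 over PC-3-EV, of the 268 members against the distance of their start from that of the first gene tested, in Mb. Filled points have a mean of at least 5 CPM, open points less, triangles at the top edge are 2 genes above the axis (LINC00540 at 3.38 and LINC00284 at 6.16), and the black line, the running median of 15 genes, stays above 0 throughout.

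Library by library, the fall-off along the arm was not even. Between 90 and 100 Mb, PC-3-RRM2 replicate 2 had a window median of 0.499 against the PC-3-EV mean, above its medians of 0.485 between 40 and 50 Mb and 0.448 between 50 and 60 Mb, where replicate 1 had 0.284, 0.419 and 0.419. In the 29 genes beyond 110 Mb, the PC-3-RRM2 medians were 0.185 and 0.151. The PC-3-RRM2 libraries stood apart most between 70 and 80 Mb, at 0.102 and 0.335. In all 8 windows of at least 5 genes, both PC-3-RRM2 medians lay above both PC-3-EV medians.

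**Figure D3:**
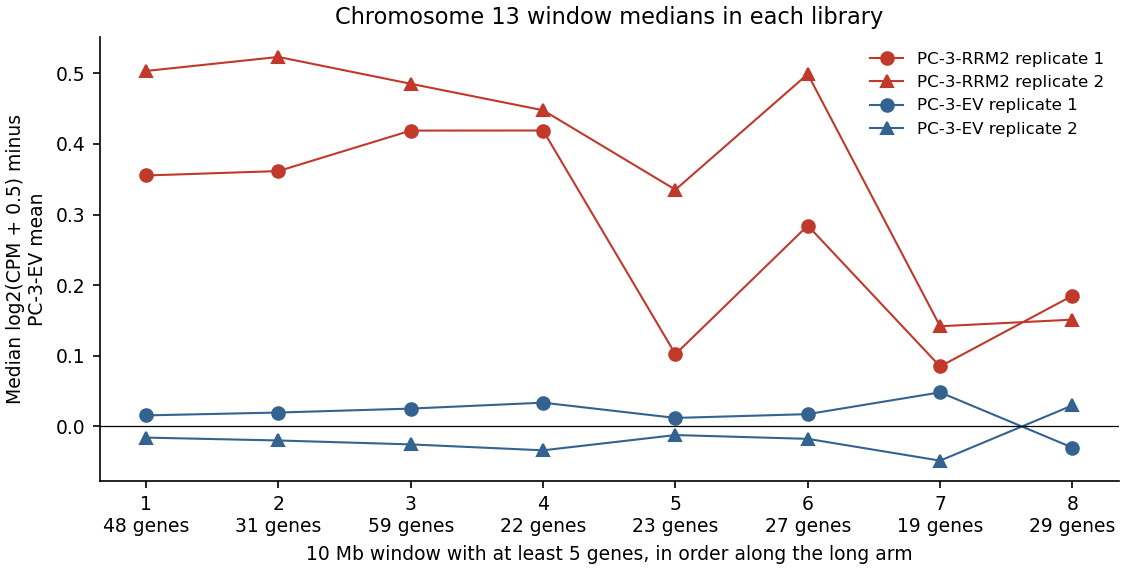
Median of log2(CPM + 0.5) minus the PC-3-EV mean, in each library, for the 8 windows of 10 Mb with at least 5 genes, in order along the long arm. Red lines are the PC-3-RRM2 libraries, at 0.0850 to 0.523, and blue lines the PC-3-EV libraries, which mirror each other because their own mean is subtracted.

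Across tertiles of mean CPM the median shift hardly moved, while its spread did. In the lowest tertile of mean CPM (0.252 to 7.15 CPM, 90 genes) the median was 0.357, in the middle one (7.19 to 25.3 CPM, 89 genes) 0.323 and in the highest (25.5 to 1306 CPM, 89 genes) 0.362. The width between quartiles was 0.886, 0.452 and 0.424 in the same order. Genes of other chromosomes in the same ranges had medians of -0.0315, -0.0136 and 0.00730. Of the members in these tertiles, 25, 21 and 25 (27.8%, 23.6% and 28.1%) were called higher, and 1, 0 and 2 were called lower. Among genes of other chromosomes in the same ranges, 16.3%, 9.84% and 5.31% were called higher. Other splits gave a wider range of medians. With 2 groups of equal size in place of tertiles, the lower group had a median of 0.287 and the upper group 0.367. By tertiles of PC-3-EV CPM, from low to high, the medians were 0.394, 0.327 and 0.329. Genes of other chromosomes in those ranges had 0.0559, -0.00352 and -0.0163. Spearman's rho between fold change and mean CPM was -0.0187 over the 268 members.

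**Figure D4:**
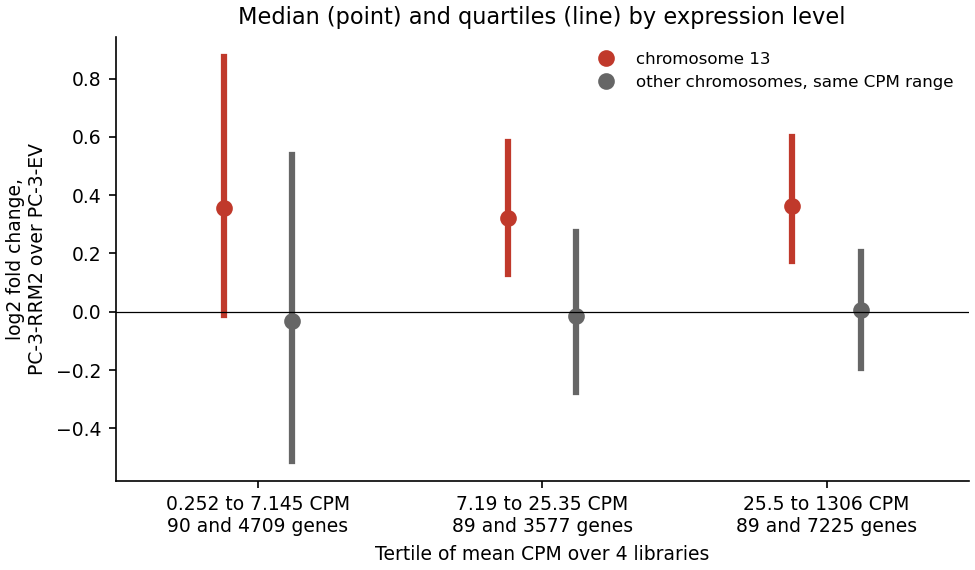
Median (point) and quartiles (line) of the log2 fold change, PC-3-RRM2 over PC-3-EV, by tertile of mean CPM over 4 libraries, for the members (red) and for genes of other chromosomes in the same CPM range (grey). The red medians lie between 0.323 and 0.362 and the grey medians between -0.0315 and 0.00730.

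By kind of gene, the 229 protein-coding members had a median of 0.372, with 65 (28.4%) called higher and 3 lower. Of all genes tested, 9.97% were called higher. The 25 long noncoding genes had a median of 0.199, with 4 (16%) called higher. The 11 pseudogenes had a median of 0.222, with 2 (18.2%) called higher. Both shares were near the 16.3% called higher among genes of other chromosomes in the lowest tertile of mean CPM. The noncoding genes were also low, with a median level of 0.991 CPM beside 18.7 CPM for the protein-coding members. Leaving out the 64 members that overlap another row left 204 genes with a median of 0.344, 54 (26.5%) called higher and 2 lower.

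The counts of calls in the following groups of known role stand beside 26.5% called higher among all members and 9.97% among all genes tested. Among these groups, the genes of mitosis and the centrosome had the highest median. Of 11 such genes, 7 (63.6%) were called higher and 0 lower, with a median of 0.797. The list was drawn up with earlier results known and is not complete, so both values depend on its choice of genes. PIBF1, a centrosomal protein named further on, is outside it, with 0.24 (SE 0.13), and was not called. CDC16 was put in the cell-cycle list, with 0.21 (SE 0.093), and was not called. CENPJ, which builds centrioles (chr13:24882274-24922890 in the gene table), had 25.4 and 29.6 CPM in PC-3-RRM2 cells, against 10 and 9.19 CPM in PC-3-EV cells, a log2 fold change of 1.51 (SE 0.125). DIAPH3, a formin that nucleates actin filaments, had 16.1 and 17.6 CPM, against 5.90 and 6.64 CPM in PC-3-EV cells (1.43, SE 0.13). Both were at more than 1.5 times their PC-3-EV level in each PC-3-RRM2 library. BORA, an activator of the Aurora A and PLK1 kinases at mitotic entry, had 10.1 and 11.0 CPM, against 5.13 and 5.04 CPM in PC-3-EV cells (1.05, SE 0.14). Its divergent neighbour MZT1, a small protein of the gamma-tubulin ring complex, had 47.6 and 51.1 CPM, against 28.6 and 28.2 CPM in PC-3-EV cells (0.80, SE 0.090). Both rose, from the pair of starts whose shared window is printed above as BORA. CKAP2, a spindle-associated protein, had 56.5 and 61.5 CPM, against 30.1 and 30.5 CPM in PC-3-EV cells (0.96, SE 0.090). SKA3, a kinetochore protein, had 10.5 and 12 CPM, against 5.66 and 6.51 CPM (0.89, SE 0.15). NEK3, a NIMA-family kinase, was also called higher. CHAMP1, KATNAL1, TUBGCP3 and SUGT1 were not called, with log2 fold changes of -0.13, 0.26, 0.44 and 0.54.

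Of 12 genes of DNA replication, repair and the cell cycle, 3 were called higher and 0 lower, with a median of 0.325. RNASEH2B, a subunit of the ribonuclease that removes ribonucleotides from DNA, had 9.25 and 8.64 CPM, against 4.73 and 4.19 CPM in PC-3-EV cells (1.00, SE 0.15). RFC3, a subunit of the clamp loader (0.86, SE 0.17), and CDK8, the Mediator kinase (0.76, SE 0.12), also rose. TFDP1, the partner of E2F factors, had -0.24 (SE 0.088) and was not called. Without both of these cell-cycle lists, the other 245 members had a median of 0.329, with 61 called higher and 3 lower, so the shift was nearly as large outside them.

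Of 22 genes of transcription, chromatin and RNA processing, 6 were called higher and 0 lower, with a median of 0.360. HMGB1, an abundant chromatin protein, had 253 and 274 CPM, against 166 and 162 CPM in PC-3-EV cells (0.68, SE 0.073). MBNL2, a splicing regulator (0.79, SE 0.090), EXOSC8, a subunit of the RNA exosome (0.82, SE 0.13), and MED4, a Mediator subunit (0.73, SE 0.11), also rose. GTF2F2, a subunit of the polymerase II factor TFIIF, and GTF3A, the 5S RNA gene factor TFIIIA, were called with 0.61 (SE 0.094) and 0.59 (SE 0.082). GTF3A lay just inside the threshold, and it lost its call without PC-3-EV replicate 1, PC-3-EV replicate 2 or PC-3-RRM2 replicate 2 (0.58, 0.53 and 0.53), with RLE or upper-quartile scaling (0.58 each) and with DESeq2 (0.58).

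Of 23 genes of protein turnover, folding and trafficking, 6 were called higher and 0 lower, with a median of 0.316. COG6, a subunit of a Golgi tethering complex, had 55.7 and 63.1 CPM, against 26.4 and 23.2 CPM in PC-3-EV cells (1.26, SE 0.11). UCHL3, a deubiquitinating enzyme (0.89, SE 0.13), UFM1, a ubiquitin-like modifier (0.79, SE 0.081), DNAJC3, a chaperone of the endoplasmic reticulum (0.72, SE 0.092), ITM2B (0.71, SE 0.090) and COG3, another subunit of the tether (0.66, SE 0.11), also rose. IPO5, a nuclear import receptor and one of the most abundant members, had 300 and 343 CPM, against 263 and 249 CPM in PC-3-EV cells (0.33, SE 0.085), and was not called.

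Of 16 genes of mitochondria and metabolism, 2 were called higher (12.5%, near the 9.97% of all genes) and 0 lower, with a median of 0.395. MIPEP, a mitochondrial peptidase, was among those that rose (0.89, SE 0.11). The list also counts TPT1, whose place in mitochondria or metabolism was not shown. This gene, the translationally controlled tumour protein and the most abundant member, had 1459 and 1529 CPM, against 1107 and 1128 CPM in PC-3-EV cells. Its groups did not overlap, but at 0.42 (SE 0.071) it was below the fold needed for a call.

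Of 25 genes of signalling and transcription factors tested, 9 were called higher and 2 lower, with a median of 0.540, the only list with calls in both directions. EFNB2, a membrane ligand of Eph receptors, had 29.4 and 32.0 CPM, against 16.9 and 15.2 CPM in PC-3-EV cells (0.93, SE 0.11). TSC22D1, a TGF-beta-stimulated transcription factor, had 312 and 329 CPM, against 213 and 210 CPM in PC-3-EV cells (0.60, SE 0.070), and its call was lost without PC-3-EV replicate 2 or without PC-3-RRM2 replicate 2. The receptor TNFRSF19 (0.80, SE 0.089) and the kinase STK24 (0.64, SE 0.082) also rose. The largest changes of the list were in genes of low level. DCLK1, a microtubule-associated kinase, had 3.79 and 4.19 CPM, against 0.635 and 0.490 CPM in PC-3-EV cells (2.80, SE 0.24). FLT1, a receptor for VEGF that endothelial cells also express, had 0.955 and 0.989 CPM, against 0.159 and 0.196 CPM in PC-3-EV cells (2.44, SE 0.39), while the summed endothelial markers were lower in PC-3-RRM2 cells. Their part in the result was not tested.

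Of 14 genes of matrix, adhesion and cytoskeleton tested, 4 were called higher and 0 lower, with a median of 0.502. LCP1, an actin-bundling protein (L-plastin; chr13:46125923-46182325 in the gene table), had 324 and 358 CPM in PC-3-RRM2 cells, against 123 and 118 CPM in PC-3-EV cells, a log2 fold change of 1.5 (SE 0.079). Its promoter window, printed above, is the one with few CpG. SCEL, a precursor of the cornified envelope, had 10.3 and 11.0 CPM, against 5.34 and 4.84 CPM in PC-3-EV cells (1.06, SE 0.14). WASF3, an actin regulator (0.92, SE 0.13), also rose. GPC5, a glypican of low level, had 0.626 and 0.560 CPM, against 0.212 and 0.262 CPM in PC-3-EV cells (1.33, SE 0.42). It was called near the threshold, at an adjusted p of 0.042 (edgeR). The type IV collagen genes COL4A1 and COL4A2, which start head to head, were not called, with 0.19 and 0.36.

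Of 9 genes of membrane transport tested, 2 were called higher and 0 lower, with a median of 0.214, the lowest of the lists of protein-coding genes. They were SLC15A1, a peptide transporter (0.84, SE 0.23), and SLC46A3, a lysosomal transporter (0.71, SE 0.16). ABCC4, a drug and nucleotide efflux pump, had 0.04 (SE 0.092). Of 6 noncoding RNA genes tested, 0 were called, with a median of 0.222. The host gene of a cluster of growth-promoting miRNAs, MIR17HG, had 0.36 (SE 0.18), and DLEU2 had 0.82 (SE 0.29). The 130 members in none of the lists had a median of 0.280, with 32 called higher and 1 lower.

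Outside the lists, 3 further genes were among the 10 largest rises at a mean of at least 5 CPM. SHISA2, which retains Wnt and FGF receptors in the endoplasmic reticulum, had 32.3 and 35.6 CPM, against 17.6 and 15.4 CPM in PC-3-EV cells (1.04). UBAC2, a membrane protein of the endoplasmic reticulum, had 56.2 and 55.2 CPM, against 28.1 and 26.9 CPM in PC-3-EV cells (1.02). The readthrough row SETDB2-PHF11 had 7.28 and 7.98 CPM, against 2.49 and 5.07 CPM in PC-3-EV cells (1.03). Its counts could be split with those of SETDB2 and PHF11, its PC-3-EV libraries lay far apart, and its call was lost without PC-3-EV replicate 1 (0.57).

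Against the trend, 3 members were called lower, all beyond 65 Mb. KLF5, a zinc-finger transcription factor of proliferating epithelia (chr13:73054976-73077543 in the gene table), had 76.0 and 81.4 CPM in PC-3-RRM2 cells, against 158 and 157 CPM in PC-3-EV cells, a log2 fold change of -1.0 (SE 0.074). The groups were far apart, and KLF5 kept its call under every alternative run. The tested neighbours on its sides were not called. PIBF1, a centrosomal protein, had 13.9 and 15.2 CPM, against 13.4 and 11.2 CPM in PC-3-EV cells (0.24, SE 0.13). KLF12, a repressor of the same zinc-finger family, had 37.0 and 40.8 CPM, against 43.9 and 42.7 CPM in PC-3-EV cells (-0.16, SE 0.093). KLF5 thus stood apart from the genes beside it. BORA and MZT1, which rose, start close by on the same stretch.

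RAP2A, a Ras-family GTPase (chr13:97434221-97467999 in the gene table), had 65.5 and 74.6 CPM in PC-3-RRM2 cells, against 108 and 103 CPM in PC-3-EV cells, a log2 fold change of -0.59 (SE 0.088). The groups did not overlap, but the value lay just inside the threshold, and the call was lost without PC-3-EV replicate 1 (-0.57), without PC-3-RRM2 replicate 1 (-0.50), with scaling on genes outside chromosome 13 (-0.58) and with no filter on low counts (-0.58). Its neighbours went the other way. MBNL2 had 59.3 and 65.4 CPM, against 36.2 and 35.8 CPM in PC-3-EV cells, and IPO5, on the other side, is given above. FGF14, an intracellular FGF that modulates sodium channels, was named after its values were seen, since it is too low for the rule of naming. It had 0.560 and 0.692 CPM, against 1.35 and 1.47 CPM in PC-3-EV cells (-1.16, SE 0.29), and its call was lost without PC-3-EV replicate 1, without PC-3-EV replicate 2, without PC-3-RRM2 replicate 1 and with DESeq2. Just outside the threshold lay DOCK9 at 0.58 and SOX21, a neural transcription factor, at -0.58 (SE 0.11). SOX21 had 19.1 and 17.1 CPM, against 25.6 and 28.8 CPM in PC-3-EV cells, and it was called lower under 6 alternatives: RLE and upper-quartile scaling, the crossed replicate block, DESeq2, and without PC-3-EV replicate 1 or PC-3-RRM2 replicate 1.

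**Figure D5:**
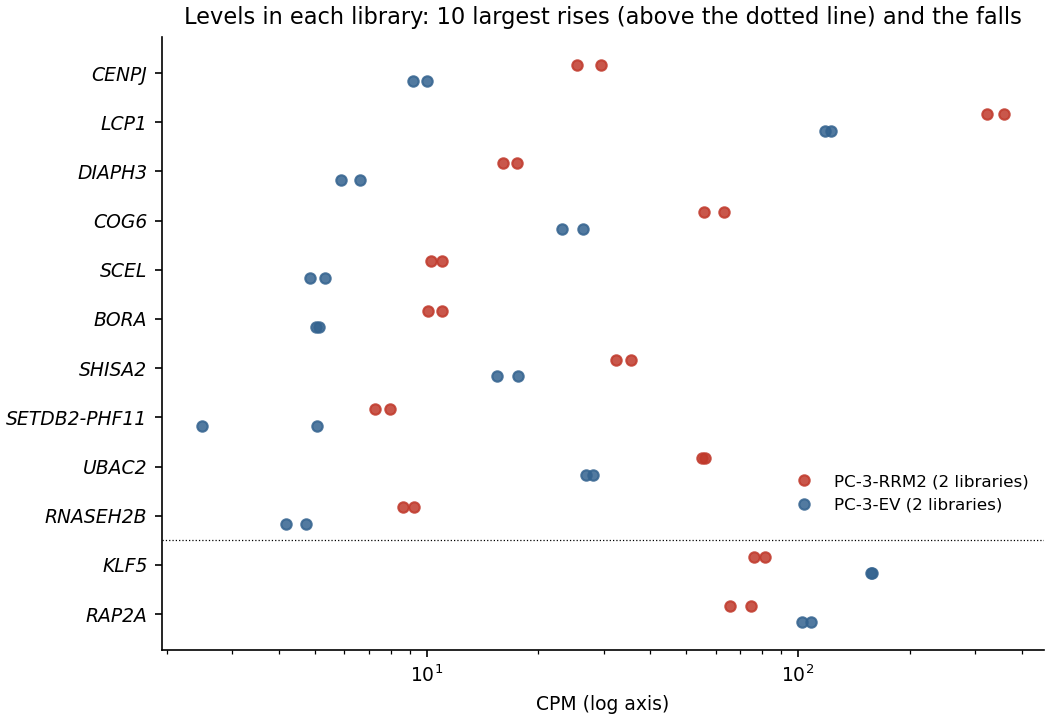
CPM (log axis) in each library for the 10 largest rises at a mean of at least 5 CPM and, under the dotted line, for KLF5 and RAP2A. PC-3-RRM2 libraries (red) are drawn above PC-3-EV libraries (blue) in each row, and the 10 rises were chosen among genes whose groups do not overlap.

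With KLF5 and RAP2A included, 30 of the 191 members with a mean of at least 5 CPM had a fold change below 0. In 22 of these (11.5% of the 191) the groups did not overlap. Among genes of other chromosomes at this level, both PC-3-RRM2 libraries lay below both PC-3-EV libraries in 33.6%. Of the 30, 7 (3.66% of the 191) had an adjusted p below 0.05 (edgeR), while 100 members (52.4%) had such a p and a fold change above 0. Genes of other chromosomes at this level had such a p with a fold change below 0 in 16.8% and above 0 in 18.8%. Over all genes tested, the shares were 15.5% and 18.8%. LMO7, a LIM-domain protein of cell junctions, had 104 and 116 CPM, against 147 and 143 CPM in PC-3-EV cells (-0.40, SE 0.079). SLITRK6, a neuronal transmembrane protein, had 36.8 and 40.5 CPM, against 48.7 and 46.5 CPM in PC-3-EV cells (-0.30, SE 0.093). Both were below the fold needed for a call. Of the 30, 10 lay among the 114 genes before 65 Mb and 20 among the 77 after it. Of these 30 genes, 14 stood in 6 short runs of neighbours below 0 and 16 stood alone. The longest runs held 3 genes each (SPRY2, SLITRK6 and SLITRK5, and TMCO3, TFDP1 and TMEM255B).

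Genes that start back to back within 1000 bases did not always share a response. There were 32 such pairs, 19 of them with both genes at a mean of at least 5 CPM. Both genes were called higher in 3 of the 19 (HMGB1 with USPL1, MZT1 with BORA, and CAB39L with the readthrough row SETDB2-PHF11), 1 gene in 4 pairs and neither in 12. CAB39L is also paired with SETDB2, which starts where the readthrough row does. SETDB2 had 0.17 (SE 0.20) and was not called, so that pair is among the 4. The call of the readthrough row depended on PC-3-EV replicate 1, as given above. Singly, 25.1% of the members at this level were called higher, beside 7.29% of genes of other chromosomes. The median absolute difference between the partners was 0.253 on the log2 scale, and Spearman's rho was 0.327 over the 19 pairs, which share libraries. Among the 19, the widest difference, 0.822, was between SKA3, which rose, and MRPL57, a mitochondrial ribosomal protein gene with 13.6 and 11.9 CPM, against 11.8 and 12.5 CPM in PC-3-EV cells (0.07, SE 0.13). UCHL3 rose, with 17.5 and 19.5 CPM, against 9.36 and 10.6 CPM in PC-3-EV cells, beside COMMD6 at 0.19 (SE 0.10). Whether reads were counted by strand was not given in the sources used here, so reads of overlapping genes on opposite strands cannot be told apart.

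At the low end, LINC00284 had 37 and 43 counts in PC-3-RRM2 libraries, against 0 and 1 in PC-3-EV libraries, a ratio of 90.6 with an exact 95% interval of 15.8 to 3622 that covers counting error only. The 43 members not tested had between 10 and 36 counts over the 4 libraries. Of these, 24 had more counts in PC-3-RRM2 libraries and 16 fewer, with 408 counts in all in PC-3-RRM2 libraries, against 349 in PC-3-EV libraries, which were together the deeper. ZIC5, a zinc-finger factor, had 9 and 16 counts in PC-3-RRM2 libraries and 0 in both PC-3-EV libraries. The exact 95% interval of its ratio relative to library totals had a lower end of 7.12 and no upper end, and covers counting error only. With 3 counts assumed over the PC-3-EV group, the ratio would be 9.44. Its tested neighbour ZIC2 had 0.757 and 0.758 CPM, against 0.0529 and 0.229 CPM in PC-3-EV cells (2.48, SE 0.56).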

How the data were processed

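RNA was sequenced from 2 PC-3-RRM2 and 2 PC-3-EV libraries of total RNA. The authors deposited estimated counts per gene, of which 56.0 to 57.7% were whole numbers; Partek is named in the submitters' processing notes, and the aligner, annotation, genome build and strand setting were not given in the sources used here. Of 265 members matched to RefSeq by symbol, 264 overlapped their GRCh38.p14 gene. Positions are those of the deposited table, and 0 columns belonged to other samples.

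The expected counts were rounded to whole numbers, and genes kept by filterByExpr were fitted by group with edgeR 4.0.16 (TMM factors, quasi-likelihood F-test, limma 3.58.1, R 4.3.3), and p-values of the 15781 genes were adjusted together by the Benjamini-Hochberg method. SE is the log2 fold change divided by the square root of F. The fit was run on simulated counts with known changes and the same fixed dispersion for every gene. That setting is simpler than these libraries, so it does not check the calls reported here. Genes were named as the 10 largest called rises with a mean of at least 5 CPM and groups that do not overlap, the called falls at that level, their neighbours, the 4 most abundant of each list and the 5 most abundant members; others named in the text were chosen after their values were seen. The members and lists were chosen with earlier results of these data known. Alternatives were other scalings and filters, replicate blocks, each library left out, DESeq2 1.42.0 and limma-voom, and other windows and levels. Values of 1 member are not reported here.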

Additional observations from a re-analysis of the deposited data

How the results depend on the processing

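The members' median log2 fold change stayed above 0 under every alternative run. Leaving out 1 library at a time gave medians of 0.291 (without PC-3-EV replicate 2) to 0.428 (without PC-3-RRM2 replicate 1), 53 to 80 genes called higher and 2 to 6 called lower, the 6 without PC-3-RRM2 replicate 2, when the genes against the trend were also 6; the lone library is then assumed to vary like the other group. DESeq2 called 59 higher and 3 lower, and limma-voom 70 and 3. Scaling on genes outside chromosome 13 gave a median of 0.354. With 2 groups by mean CPM in place of tertiles the lowest level had a median of 0.287 and the highest 0.367. A stricter filter on low counts left 48 called higher and 2 lower, because fewer genes were tested.

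The replicate numbers do not show a pairing: deviations of libraries with the same number had a correlation of -0.269. With the replicate block, 72 were called higher and 3 lower, with a median of 0.336. Crossing the numbers, an alternative chosen after seeing the data, gave 77 and 6.

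Among single genes near 0, ABCC4 changed sign without PC-3-EV replicate 2 (-0.024) and without PC-3-RRM2 replicate 2 (-0.0098), and CUL4A without the same libraries (-0.0042 and -0.059), while ITGBL1 did so without PC-3-EV replicate 1 (0.0030). With each library left out in turn, ABCC4 ranged from -0.024 to 0.091, CUL4A from -0.059 to 0.158 and ITGBL1 from -0.268 to 0.0030. None of the 3 was called, and the cause was not tested.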

Other observations

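Chromosome 13 also carries retrocopies, copies of messenger RNAs of genes elsewhere, whose reads can be shared with the parent gene. The 8 pairs given here were chosen after their values were seen and are not a complete list. All 8 copies had a fold change below the members' median of 0.349, and the median over the copies was 0.0067, beside -0.03 over the parents. HNRNPA1L2 had 0.04 (SE 0.094), beside 0.96 and 0.54 for its neighbours CKAP2 and SUGT1 and -0.02 for its parent HNRNPA1 on chromosome 12. ST13P4 had -0.05 (SE 0.091), beside 0.24 and 1.00 for its neighbours DLEU1 and RNASEH2B and 0.09 for its parent ST13 on chromosome 22. CSNK1A1L had -0.20 (SE 0.13), beside 0.33 and 0.79 for SUPT20H and UFM1 and -0.06 for its parent CSNK1A1 on chromosome 5. UTP14C had -0.02 (SE 0.11), where its parent UTP14A on chromosome X had -0.34. PABPC3 was the most abundant, at a mean of 170 CPM, with 0.26 (SE 0.076), beside 0.23 for its parent PABPC1 at 1838 CPM. None of the copies or parents was called. How many of the copies' counts came from reads of the parents was not tested.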
